A study of Mus musculus with 27 samples.

Results

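The tRNAs that carry glutamate, aspartate, glutamine and asparagine were followed in a small RNA table of 3 subcellular fractions of 3 kinds of mouse cells. Members were all lines of the tRNA class whose name begins with tRNA-Glu, tRNA-Asp, tRNA-Gln or tRNA-Asn, a rule that uses no measured value. They came to 36 of the 1013 lines of the table, here called entries, and 36 of the 193 entries of tRNA genes. Summed by anticodon they gave 6 of 40 anticodons: Glu-CTC with 9 entries, Glu-TTC with 6, Gln-CTG with 7, Gln-TTG with 6, Asn-GTT with 7 and Asp-GTC with 1. Levels are in RPM, read numbers scaled by the authors to the size of each library.

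A tRNA reads a codon of the mRNA through its anticodon and delivers the matching amino acid to the ribosome. tRNA genes are transcribed by RNA polymerase III, and the transcripts are trimmed and modified in the nucleus before export to the cytoplasm, where translation takes place. Glutamate tRNAs read GAA and GAG codons, glutamine tRNAs CAA and CAG, and in mammals the TTC and TTG anticodons of this group carry a sulphur-containing uridine at the wobble base. Asparagine and aspartate tRNAs carry a G at the wobble position that can be replaced by queuosine. Libraries were selected at 120 to 160 bp, which in such libraries includes the adapters and leaves inserts shorter than a whole tRNA, so the values are read here as pieces of tRNAs and not as whole molecules.

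The groups were 3 libraries each of chromatin, soluble nucleoplasm and cytoplasm from mESC, mNPC and mCtx, 27 in all. mESC stands for embryonic stem cells of the E14 line, kept on gelatin with LIF, mNPC for a neural progenitor line made in the depositing laboratory and fed EGF and FGF, and mCtx for a primary culture of cortical neurons kept for 5 days on poly-L-lysine. The cell lines are single lines, so differences between cell types rest on 1 line or culture type each. RNA below 200 nt was freed of rRNA in every group, with cytoplasmic RNA taken up in Trizol LE and RNA of both nuclear fractions in Trizol. The libraries are described as biological triplicates, but no label states separate cultures, so p-values speak only of the spread among these libraries, possibly technical.

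Listed values covered between 73.9% and 97.4% of the RPM total of a library, and the read depth is not known. Each library had a lowest value above 0, between 5.16 and 59.1 RPM, below which everything was listed at 0, so a 0 is not read as absence. The stem cell miRNAs of the miR-290 to miR-295 cluster summed to between 19860 and 93950 RPM in mESC libraries and were listed at 0 in every mNPC and mCtx library. miR-9 summed to at least 34840 RPM in mNPC and mCtx libraries, against at most 751.7 RPM in mESC libraries. Neuronal miR-124 and miR-128 summed to at least 12810 RPM in mCtx libraries and to at most 938.3 RPM elsewhere, whereas a list of glial miRNAs stayed at or under 288 RPM. A list of endothelial and mesenchymal miRNAs summed to between 2192 and 4158 RPM in mCtx libraries, between 112.2 and 344.5 RPM in mNPC libraries and between 948.7 and 7629 RPM in mESC libraries, and a microglial and blood list to at most 44.5 RPM in mCtx, 0 in mNPC and 406.6 to 3914 RPM in mESC libraries. Their part in the tRNA values was not tested. snoRNA entries took 20.6% to 54.3% of listed reads in chromatin, against 0.0285% to 0.550% in cytoplasm.

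Cytoplasm replicate 1 of mCtx stood apart among tRNAs. It alone of its group held reads of 2 anticodons, Glu-CTC and Gln-CTG, and it alone was at 0 for 9 of the 40, among them Asn-GTT and Asp-GTC. Anticodon calls that changed when it was left out are given with and without it. In mNPC chromatin, replicate 3 alone was at 0 for Glu-CTC, and its lowest listed value was the highest of all libraries.

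Glu-TTC was the only member anticodon above 0 in all 27 libraries, and it was lower in chromatin than in cytoplasm in each cell type. Its copies together had 4689, 1615 and 1385 RPM in the 3 chromatin libraries of mESC, 3742, 3689.7 and 3241 RPM in nucleoplasm, and 17389.6, 7210.4 and 5431 RPM in cytoplasm. In mNPC the sums were 656, 667 and 157 RPM in chromatin, 973, 559 and 416 RPM in nucleoplasm, and 3468, 3057 and 3529 RPM in cytoplasm. In mCtx they were 515, 919 and 595 RPM in chromatin, 971, 794 and 911 RPM in nucleoplasm, and 6572, 7466 and 8690.1 RPM in cytoplasm. Every cytoplasmic library lay above every nuclear library of the same cell type, and the narrowest gap was in mESC, where chromatin replicate 1 came close to the lowest cytoplasmic library.

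**Figure D1:**
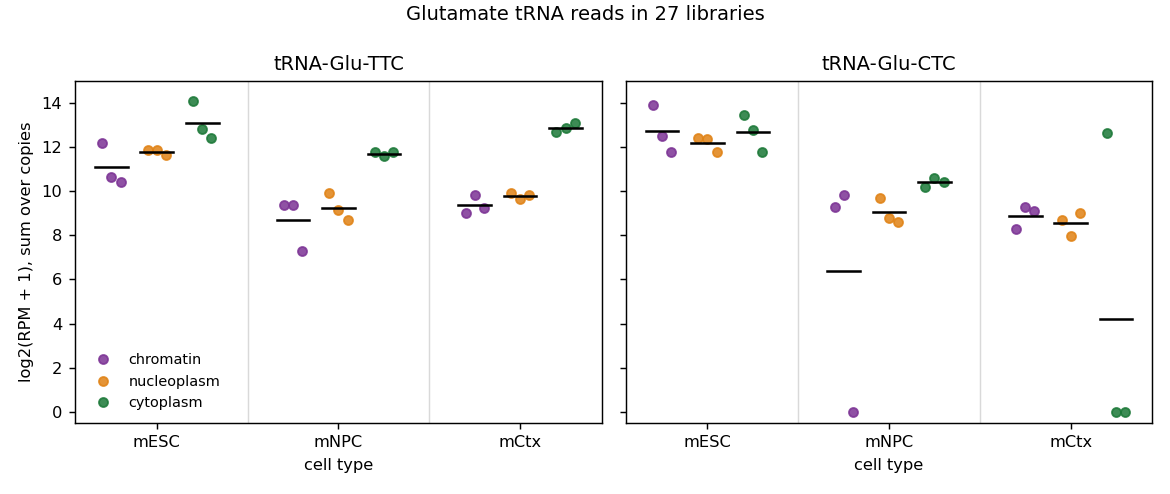
Levels of tRNA-Glu-TTC and tRNA-Glu-CTC, summed over copies, as log2(RPM + 1) in 27 libraries by cell type and fraction; points are libraries and black lines the means of the log values. Glu-TTC lies highest in cytoplasm in all 3 cell types, while Glu-CTC has a library at 0 in mNPC chromatin and 2 at 0 in mCtx cytoplasm.

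Means of Glu-TTC in chromatin were 2563 ± 1845 RPM in mESC, 493 ± 291.5 RPM in mNPC and 676 ± 214.4 RPM in mCtx, against 10010 ± 6452, 3352 ± 257 and 7576 ± 1063 RPM in cytoplasm (SD, n = 3). On the log2(RPM + 1) scale, chromatin minus cytoplasm was -2.01 for mESC (SE 0.52), -3.03 for mNPC and -3.52 for mCtx, with limma adjusted p of 0.00215, 6.45e-05 and 9.83e-06 over 729 features. Nucleoplasm, with means of 3557 ± 276, 650 ± 289 and 892 ± 89.7 RPM, differed from the same cytoplasm libraries by -1.31 for mESC, -2.45 for mNPC and -3.08 for mCtx (limma adjusted p of 0.0938, 0.00171 and 0.000148). The mESC value did not pass although its groups did not overlap, and it passed with median centring (-1.36, limma adjusted p = 0.0284) and with the highest copy in place of the sum (-1.25, limma adjusted p = 0.0402). Chromatin and nucleoplasm differed by -0.70, -0.57 and -0.44 in the 3 cell types, none past the threshold (limma adjusted p of 0.272, 0.568 and 0.668). The mESC differences of nucleoplasm from cytoplasm and of chromatin from nucleoplasm each passed when 1 library was left out, at -1.66 without mESC cytoplasm replicate 3 and at -1.25 without mESC chromatin replicate 1 (limma adjusted p = 0.0486 each). RPM is a share of a library, so less of the tRNA cannot be told apart from more of other RNAs.

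The fall of Glu-TTC in chromatin held without any single library in all 3 cell types, but not under every scaling. With libraries centred on the median of the features above 0 in every library, the mESC difference came to -0.35 (limma adjusted p = 0.632). With values rescaled to the tRNA reads of each library, the mCtx differences came to -1.03 in chromatin and -0.75 in nucleoplasm (limma adjusted p of 0.0698 and 0.208), while the mESC and mNPC calls remained. All tRNA together had between 17593 and 21042 RPM in mCtx chromatin and between 20732 and 22654 RPM in nucleoplasm, against 103024 to 115265 RPM in cytoplasm.

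As a share of tRNA reads, Glu-TTC was again highest in cytoplasm. It took 3.26%, 1.43% and 1.21% of tRNA reads in mESC chromatin, 4.25%, 2.77% and 3.38% for nucleoplasm, and 11.1%, 7.17% and 7.47% for cytoplasm. In mNPC the shares were 2.60%, 2.61% and 0.525% in chromatin, 3.12%, 1.93% and 1.89% for nucleoplasm, and 9.36%, 7.89% and 8.08% for cytoplasm. In mCtx they were 2.93%, 4.52% and 2.83% in chromatin, 4.37%, 3.83% and 4.02% for nucleoplasm, and 6.38%, 6.48% and 7.71% for cytoplasm. No nuclear library reached the lowest cytoplasmic share of its cell type, and the gap was narrowest in mCtx. All members together made up between 0.762% and 18.6% of tRNA reads, with a median of 7.002% over the 27 libraries, and glutamate tRNA alone between 0.525% and 18.1%, with a median of 6.54%. In mNPC chromatin replicate 3, the library with the lowest share, the rest was Asn-GTT. All these shares use summed entries, in which a read shared by copies may count more than once.

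**Figure D2:**
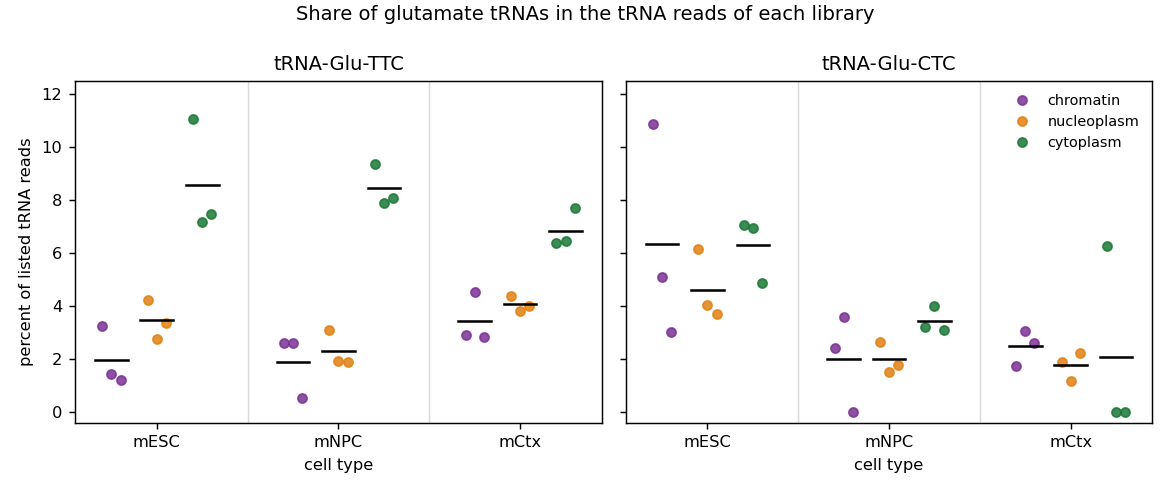
Share of tRNA-Glu-TTC and tRNA-Glu-CTC in the listed tRNA reads of each library, in percent, by cell type and fraction; points are libraries and black lines means. Cytoplasmic shares of Glu-TTC, between 6.38% and 11.1%, lie above every nuclear share of the same cell type.

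Between cell types, Glu-TTC was lower in mNPC than in mESC in all 3 fractions, by -2.42 in chromatin, -2.54 in nucleoplasm and -1.39 in cytoplasm (SE 0.52, limma adjusted p of 0.000535, 0.000288 and 0.0361). mCtx was lower than mESC by -1.74 in chromatin and -2 in nucleoplasm (limma adjusted p of 0.00711 and 0.00254), but its cytoplasm differed by -0.23 and overlapped with that of mESC (limma adjusted p = 1). mCtx minus mNPC gave 0.68, 0.54 and 1.17 in chromatin, nucleoplasm and cytoplasm, none past the threshold (limma adjusted p of 0.415, 0.528 and 0.104), although the cytoplasmic groups did not overlap. The comparisons of mNPC and mCtx with mESC share the mESC libraries.

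Total tRNA was also lower in mNPC than in mESC. It came to between 72711 and 157238 RPM in mESC libraries and between 22068 and 43675 RPM in mNPC libraries, and to the levels given above in mCtx. Rescaled to tRNA reads, none of the 5 differences of Glu-TTC between cell types passed: mNPC minus mESC was -0.22 in chromatin, -0.60 in nucleoplasm and 0.00 in cytoplasm, and mCtx minus mESC turned to 0.91 in chromatin and 0.25 in nucleoplasm (limma adjusted p between 0.107 and 1). The cytoplasmic call also ended without mESC cytoplasm replicate 1 (-0.90, limma adjusted p = 0.232) or without any mNPC cytoplasm library, and the mCtx call in chromatin without mESC chromatin replicate 1 (-1.19, limma adjusted p = 0.0651). Tests of whether the distance to cytoplasm differed between cell types did not pass: chromatin gave -1.02 for mNPC minus mESC and -0.49 for mCtx minus mNPC, and nucleoplasm -1.14 and -0.63 (limma adjusted p between 0.318 and 0.839).

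Glu-CTC, which reads the GAG codon, reached summed levels in mESC like those of Glu-TTC but gave no call between fractions. Copies may share reads, so sums over 9 copies and over the 6 of Glu-TTC are not a like measure. Its 9 copies together had 15646, 5756 and 3479 RPM in mESC chromatin, 5415, 5364 and 3554 RPM in nucleoplasm, and 11109.8, 6998 and 3541 RPM in cytoplasm. In mNPC the sums were 616, 924 and 0 RPM in chromatin, 832, 444 and 392 RPM in nucleoplasm, and 1185, 1558 and 1351 RPM in cytoplasm. In mCtx they were 309, 623 and 552 RPM in chromatin, 419, 247 and 509 RPM in nucleoplasm, and 6444, 0 and 0 RPM in cytoplasm. The 3 mESC fractions overlapped throughout, the mNPC cytoplasm lay above both nuclear fractions, and the mCtx cytoplasm held the highest and the lowest values of its cell type.

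No difference of Glu-CTC between fractions passed, and its SE of 2.46 was far above that of Glu-TTC. Chromatin minus cytoplasm was 0.06 for mESC, -4.03 for mNPC and 4.67 for mCtx (limma adjusted p of 1, 0.249 and 0.15), and nucleoplasm minus cytoplasm -0.47, -1.37 and 4.34 (limma adjusted p of 1, 1 and 0.268). Without mCtx cytoplasm replicate 1 the remaining mCtx cytoplasm libraries were at 0, and chromatin and nucleoplasm then passed as higher at 8.89 and 8.55 (limma adjusted p of 0.000382 and 0.00151), values that depend on the pseudocount. The mNPC value in chromatin rests on replicate 3 at 0, and without mCtx cytoplasm replicate 1 it passed at -4.03 with a limma adjusted p of 0.0496.

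Between cell types, chromatin of mNPC was lower than that of mESC in Glu-CTC by -6.36 (limma adjusted p = 0.0423), which became -3.17 without mNPC chromatin replicate 3 (limma adjusted p = 0.315) and also did not pass without any one mESC chromatin library. Cytoplasm of mCtx was lower than that of mESC by -8.45 (limma adjusted p = 0.00774), and without mCtx cytoplasm replicate 2 or 3 by -6.34 (limma adjusted p of 0.0628 and 0.0618). These groups overlapped, with mCtx replicate 1 at 6444 RPM and replicates 2 and 3 at 0, so the size depends on the pseudocount. Chromatin of mCtx minus mESC was -3.84 (limma adjusted p = 0.215), which passed without mCtx cytoplasm replicate 1 at the same value (limma adjusted p = 0.0479). Cytoplasm of mCtx minus mNPC was -6.19 (limma adjusted p = 0.0656), and -10.41 without mCtx cytoplasm replicate 1 (limma adjusted p = 8.76e-05). The distance from cytoplasm differed between mCtx and mNPC by 8.70 for chromatin and 5.70 for nucleoplasm (limma adjusted p of 0.0978 and 0.438), and without that library by 12.92 and 9.92 (limma adjusted p of 0.000465 and 0.0108). In nucleoplasm, the mESC libraries lay above all mNPC and mCtx libraries, with differences of -3.16 for mNPC and -3.64 for mCtx that did not pass (limma adjusted p of 0.332 and 0.232).

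The balance of the glutamate anticodons is given by the ratio of Glu-CTC to Glu-TTC within a library, which does not depend on how a library was scaled. The ratio was 3.34, 3.56 and 2.51 in mESC chromatin, 1.45, 1.45 and 1.10 for nucleoplasm, and 0.639, 0.971 and 0.652 for cytoplasm, so that the 3 fractions of mESC were fully separated. In mNPC it was 0.939, 1.39 and 0 in chromatin, 0.854, 0.794 and 0.941 for nucleoplasm, and 0.342, 0.510 and 0.383 for cytoplasm. There nucleoplasm lay above cytoplasm in every library, as did chromatin apart from replicate 3. In mCtx the ratio was 0.601, 0.678 and 0.927 in chromatin, 0.431, 0.311 and 0.559 for nucleoplasm, and 0.981, 0 and 0 for cytoplasm. Chromatin lay above nucleoplasm there, while cytoplasm fell on either side of them. The ratio is a description and was given no test. It compares sums over 9 and 6 entries whose copies may share reads, so its place above or below 1 does not tell which anticodon had more reads. In mNPC and mCtx the number of listed Glu-CTC copies also changed between libraries.

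Gln-TTG, which reads the CAA codon, was listed at 0 in all chromatin libraries of all 3 cell types. In mESC it had 110, 120 and 153 RPM in nucleoplasm and 476, 0 and 123 RPM in cytoplasm. In mNPC a single library, cytoplasm replicate 1, listed it, at 119 RPM. In mCtx it had 72.5, 30.4 and 28.0 RPM in nucleoplasm and 584, 569 and 755 RPM in cytoplasm. mCtx cytoplasm thus held the highest values of the series, above every other library, and the mCtx fractions did not overlap.

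Chromatin minus cytoplasm of Gln-TTG was -5.28 in mESC (SE 1.64) and -9.30 in mCtx, with limma adjusted p of 0.00913 and 9.94e-05, and chromatin minus nucleoplasm -6.99 and -5.34 (limma adjusted p of 0.00115 and 0.0151). Since chromatin was at 0, these sizes depend on the pseudocount and no fold is given. In mESC nucleoplasm every Gln-TTG entry had at most 42.9 RPM, below the lowest listed values of mESC chromatin, 45.2 to 54.8 RPM. An equal level in chromatin would also be listed at 0, so the mESC call against nucleoplasm does not show less in chromatin. With every value below 59.1 RPM raised to that level, the highest of the lowest listed values, the differences from cytoplasm were -1.34 in mESC and -3.39 in mCtx and still passed (limma adjusted p of 0.0147 and 3.69e-06), whereas mCtx chromatin minus nucleoplasm came to -0.10 (limma adjusted p = 1). The floor was set on sums over copies, whereas the lowest listed values hold for single entries. Passing under it thus does not show that a call is free of the listing limit. The mESC difference from cytoplasm was lost without cytoplasm replicate 1 (-3.47, limma adjusted p = 0.0842), and the mCtx difference from nucleoplasm without nucleoplasm replicate 1 (-4.92, limma adjusted p = 0.0568). mCtx nucleoplasm minus cytoplasm was -3.96 and did not pass (limma adjusted p = 0.106), although all 3 nucleoplasm libraries lay below all cytoplasm libraries. Under the common floor it was -3.30 with a limma adjusted p of 2.33e-05.

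Between cell types, Gln-TTG was higher in mCtx than in mNPC, by 7 in cytoplasm and 5.34 in nucleoplasm (limma adjusted p of 0.00207 and 0.0134). Against mESC, mCtx cytoplasm was higher by 4.02 and just missed the threshold (limma adjusted p = 0.0559), although its libraries all lay above those of mESC. In nucleoplasm mNPC was lower than mESC by -6.99 (limma adjusted p = 0.00115), and mCtx differed by -1.65 (limma adjusted p = 0.432). Under the common floor the mNPC and mCtx differences in nucleoplasm no longer passed, at -1.09 for mNPC minus mESC and 0.10 for mCtx minus mNPC (limma adjusted p of 0.0683 and 1).

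**Figure D3:**
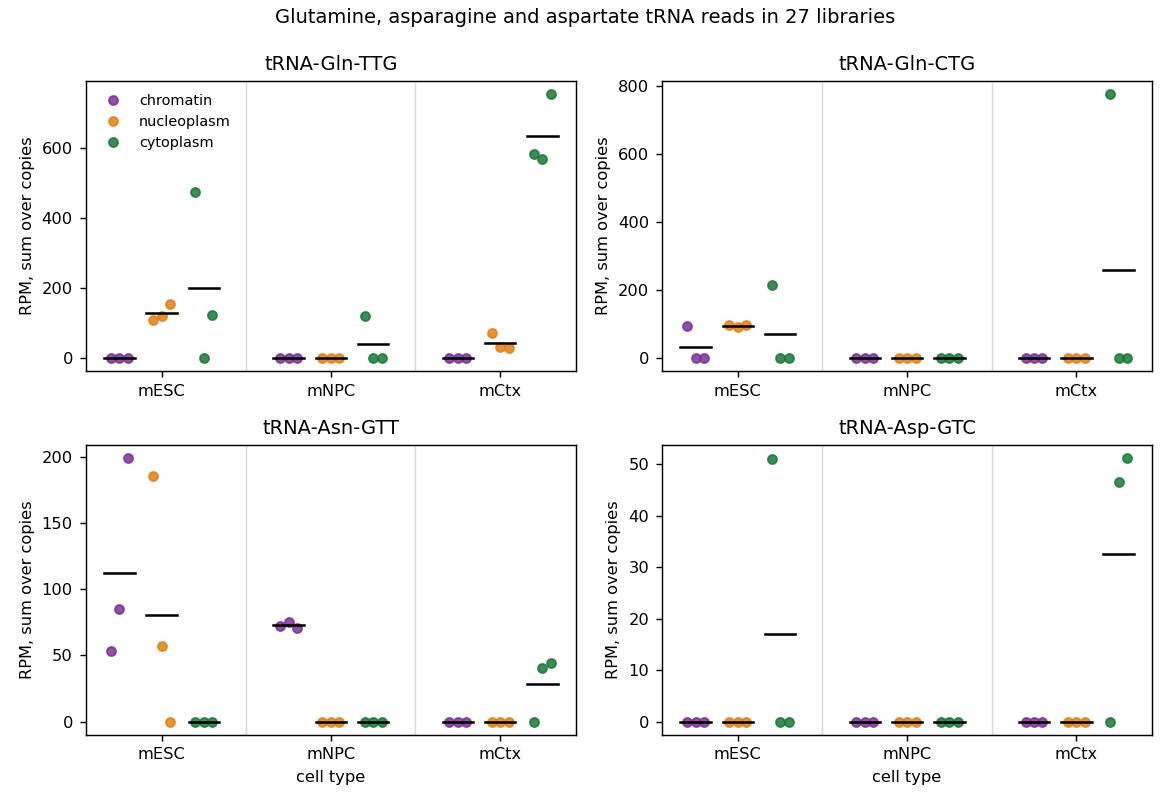
Levels of tRNA-Gln-TTG, tRNA-Gln-CTG, tRNA-Asn-GTT and tRNA-Asp-GTC in RPM, summed over copies, by cell type and fraction; points are libraries and black lines means. Gln-TTG is at 0 in all chromatin libraries and reaches 569 to 755 RPM in mCtx cytoplasm, while Gln-CTG reaches 776 RPM in 1 mCtx cytoplasm library alone.

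Gln-CTG, the reader of CAG, was listed in 6 libraries only. In mESC it had 92.9, 0 and 0 RPM in chromatin, 97.9, 90.1 and 97.9 RPM in nucleoplasm, and 214.3, 0 and 0 RPM in cytoplasm. It was at 0 in all 9 mNPC libraries, and of the mCtx libraries only cytoplasm replicate 1 listed it, at 776 RPM. No comparison of fractions passed, and the mESC chromatin to nucleoplasm difference was -4.40 (limma adjusted p = 0.0869). It passed without mESC chromatin replicate 1 (-6.59, limma adjusted p = 0.0147), and at -4.40 without mESC or mCtx cytoplasm replicate 1 (limma adjusted p of 0.0483 and 0.0244). Nucleoplasm minus cytoplasm in mESC was 4 (limma adjusted p = 0.256), and 6.59 without mESC cytoplasm replicate 1 (limma adjusted p = 0.0268). In nucleoplasm mNPC and mCtx were both lower than mESC by -6.59 (limma adjusted p of 0.0138 and 0.0132), and under the common floor by -0.68 (limma adjusted p of 0.564 and 0.557).

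Asn-GTT, which reads both asparagine codons, was listed in chromatin of mESC and mNPC but not of mCtx. mESC chromatin had 53.2, 84.8 and 199.1 RPM, nucleoplasm 185, 57.0 and 0 RPM, and all 3 cytoplasm libraries were at 0. mNPC chromatin had 71.8, 75.2 and 70.9 RPM, with every nucleoplasm and cytoplasm library at 0. mCtx chromatin and nucleoplasm were at 0 throughout, and cytoplasm had 0, 40.2 and 44.4 RPM. Chromatin therefore lay above cytoplasm in every library of mESC and mNPC, and nowhere in mCtx.

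Chromatin minus cytoplasm of Asn-GTT was 6.61 for mESC (SE 1.36), 6.2 for mNPC and -3.62 for mCtx (limma adjusted p of 3e-04, 0.000953 and 0.0397). mNPC chromatin was also 6.2 above nucleoplasm (limma adjusted p = 0.00131), and mESC nucleoplasm 4.47 above cytoplasm (limma adjusted p = 0.0244). In mESC, chromatin minus nucleoplasm was 2.14 with overlapping groups (limma adjusted p = 0.198), and 3.68 without nucleoplasm replicate 1 (limma adjusted p = 0.0263). Thr-AGT and Pro-TGG were likewise above mESC cytoplasm at 0, by 7.72 and 5.38 (limma adjusted p of 8.81e-07 and 0.00103). Of the 31 other anticodons tested there, 7 were above and 12 below. Whether the chromatin to cytoplasm difference changed between mCtx and mNPC was itself tested and came to -9.82 (SE 1.93, limma adjusted p = 0.000969). In chromatin, mCtx was lower than mNPC by -6.2 and lower than mESC by -6.61 (limma adjusted p of 0.00119 and 0.000334). In nucleoplasm mNPC and mCtx were each lower than mESC by -4.47 (limma adjusted p of 0.00927 and 0.00887), and both were lost without mESC nucleoplasm replicate 1. In cytoplasm mCtx was higher than mESC by 3.62 (limma adjusted p = 0.0373) and than mNPC by the same value without passing (limma adjusted p = 0.0506).

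These Asn-GTT levels were close to what a library could list. The lowest listed values ran from 32.5 to 59.1 RPM in mNPC chromatin, from 30.2 to 34.0 RPM in mNPC nucleoplasm and from 22.5 to 40.6 RPM in mNPC cytoplasm. Under the common floor of 59.1 RPM every call of Asn-GTT ended, with 0.75 in mESC chromatin, 0.29 in mNPC chromatin and 0.00 in mCtx chromatin against cytoplasm (limma adjusted p of 0.0797, 0.803 and 1). The mESC nucleoplasm call was also lost without any single mESC cytoplasm library or without nucleoplasm replicate 1 or 2 (limma adjusted p between 0.0525 and 0.193). The mCtx chromatin call was lost without cytoplasm replicate 2 or 3 (limma adjusted p of 0.182 and 0.193) and without any mCtx chromatin library. Without mCtx cytoplasm replicate 1, which was at 0, mCtx nucleoplasm also passed as lower than cytoplasm, by -5.43, and mCtx cytoplasm as higher than that of mNPC, by 5.43 (limma adjusted p of 0.0037 and 0.00175). Scaled to tRNA reads, the higher level in mCtx than in mESC cytoplasm came to 3.10 and did not pass (limma adjusted p = 0.055), and it was also lost without mCtx cytoplasm replicate 2 or 3 or any mESC cytoplasm library.

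Asp-GTC, the aspartate tRNA that is a known substrate of the methyltransferase DNMT2, had a single tRNA entry, Asp-GTC-2-1 (GRCm38 chromosome 10, 91182097 to 91182168, minus strand, between genes). It was listed in 3 libraries: mCtx cytoplasm replicates 2 and 3 at 46.6 and 51.2 RPM, and mESC cytoplasm replicate 1 at 51.0 RPM. No chromatin or nucleoplasm library listed it. It met the filter for testing only through the 3 cytoplasm libraries named, so its calls are not read as support for a difference. Leaving out any of the 3 removed it from testing, so those refits could not lose its calls. In mCtx both nuclear fractions were lower than cytoplasm by -3.76 (SE 1.23, limma adjusted p of 0.0186 for chromatin and 0.0353 for nucleoplasm), and mCtx cytoplasm was higher than that of mNPC by 3.76 (limma adjusted p = 0.0229). mCtx cytoplasm replicate 1 was at 0, so the groups overlapped. All 3 values became 0.00 under the common floor (limma adjusted p = 1). The nucleoplasm call was lost without any one mCtx nucleoplasm library, and the call against mNPC without any one mNPC cytoplasm library (limma adjusted p up to 0.0853 and 0.0549). Without mCtx cytoplasm replicate 1 the mCtx fractions no longer overlapped, and mCtx cytoplasm passed as higher than that of mESC, by 3.74 (limma adjusted p = 0.00474), against 1.86 with it (limma adjusted p = 0.271), although mESC replicate 1 lay between the remaining mCtx values. The distance of either nuclear fraction from cytoplasm differed between mCtx and mNPC by -3.76 (limma adjusted p of 0.166 for chromatin and 0.249 for nucleoplasm), and without that library by -5.64 (limma adjusted p of 0.00546 and 0.0111).

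**Figure D4:**
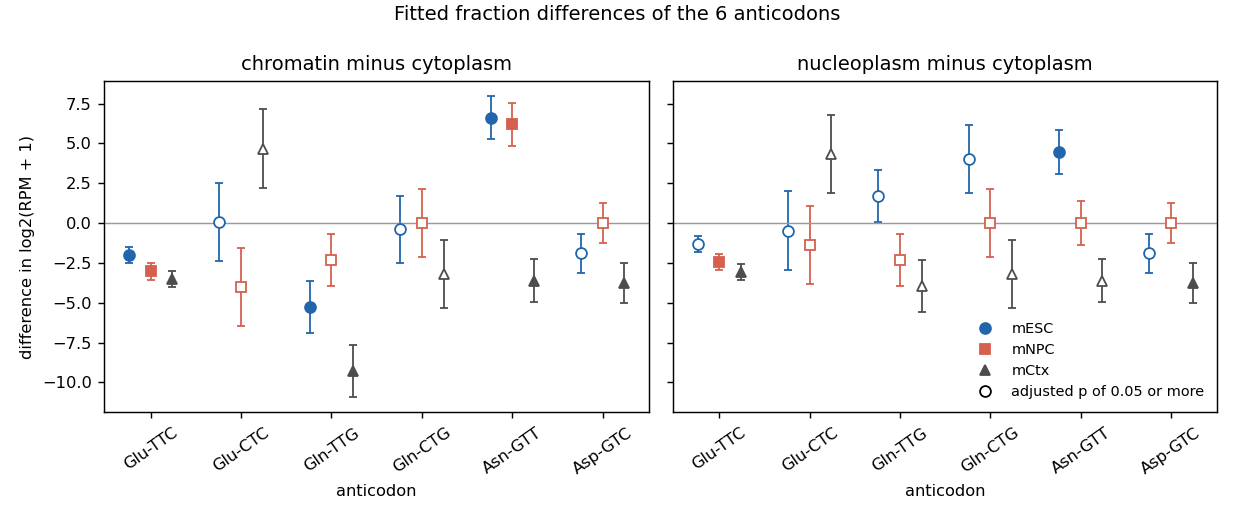
Log2 difference of chromatin and of nucleoplasm from cytoplasm for the 6 anticodons in mESC, mNPC and mCtx, on the log2(RPM + 1) scale; bars are standard errors, filled points have a limma adjusted p under 0.05 and open points 0.05 or more. Glu-TTC lies below 0 in every panel, and Asn-GTT lies at 6.61 and 6.2 in mESC and mNPC chromatin and at -3.62 in mCtx chromatin.

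Counted over the 6 anticodons, calls of nuclear fractions against cytoplasm went in either direction in mESC and mNPC, and those in mCtx were all downward. For chromatin in mESC, 1 member rose and 2 fell, where 26.3% of all 729 features rose and 30.7% fell, and for nucleoplasm 1 rose and 0 fell, against 16.2% and 3.29% of all features. mNPC gave 1 up and 1 down in chromatin (21.8% and 16.2% of all features), and 0 up and 1 down in nucleoplasm (8.92% and 4.25%). mCtx gave 0 up and 4 down in chromatin (22.4% and 17.6%), and 0 up and 2 down in nucleoplasm (14.8% and 5.08%), Asp-GTC counted in both. Chromatin against nucleoplasm gave 0 up and 1 down in mESC (21.4% and 33.5%), 1 up and 0 down in mNPC (18.7% and 10.3%), and 0 up and 1 down in mCtx (16.5% and 17.8%).

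The other tRNA anticodons showed a like direction in mCtx. Of the 31 of them that were tested, mCtx chromatin had 1 above and 20 below cytoplasm, with a median log2 difference of -3.08, against -3.57 for the 6 members and 0 for all features. For mCtx nucleoplasm these counts were 0 above and 16 below, with medians of -2.82 for these anticodons and -3.41 for the members. mESC had 7 above and 12 below in chromatin and 2 above and 6 below in nucleoplasm, and mNPC 1 above and 12 below in chromatin and 1 above and 6 below in nucleoplasm. Members and other tRNAs were not tested against each other.

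Between cell types, the counts of higher and lower members were 0 and 2 for chromatin of mNPC against mESC (18.2% of all features higher and 25% lower), 0 and 4 for nucleoplasm (14.7% and 34%), and 0 and 1 for cytoplasm (15.5% and 24.1%). For mCtx against mESC they were 0 and 2 in chromatin (26.5% and 26.3%), 0 and 3 in nucleoplasm (23.6% and 29.2%), and 1 and 1 in cytoplasm (20.3% and 22.2%). For mCtx against mNPC they were 0 and 1 in chromatin (17.3% and 13%), 1 and 0 in nucleoplasm (26.6% and 10.4%), and 2 and 0 in cytoplasm (18.5% and 11.7%). Asp-GTC was counted among those higher in cytoplasm. The distance of chromatin from cytoplasm differed between mCtx and mNPC for 0 members upward and 2 downward (7.27% and 9.47% of all features), and between mNPC and mESC for 0 (20.6% and 11.2%). The distance of nucleoplasm differed for 0 members between mNPC and mESC (2.88% and 7.54%) and for 0 between mCtx and mNPC (5.49% and 2.61%). In limma at an unadjusted p under 0.05, the 3 comparisons of distance without a call held 0, 1 and 1 members.

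The member genes are scattered over the genome, and some copies of an anticodon had the same or nearly the same values while others differed. On GRCm38, 30 of the 36 entries lie between annotated genes, 4 lie in introns and 2 overlap exons. Chromosome 3 holds 8, chromosomes 1 and 13 hold 6 each, and chromosome 11 holds 5. The tRNA names number the mature sequence first and the gene copy second. Glu-CTC-1-1 (chromosome 1, 171064164 to 171064235, minus strand, in an intron of Fcgr3) and Glu-CTC-1-2 had the same value in all 27 libraries, as did Gln-CTG-3-1 and Gln-CTG-3-2, and 4 of the Asn-GTT entries (3-3, 3-6, 3-8 and 3-9). The 4 copies of Glu-TTC-1 lay within 1% of each other in 13 of the 26 libraries that listed them, and the pair of Glu-TTC-2 copies in 18 of 27. Such copies may share reads, so entries of 1 anticodon are not independent measurements and the sums may count a read more than once.

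Other copies differed. Glu-TTC comes in 2 mature sequences, and the mean of the Glu-TTC-2 copies over that of the Glu-TTC-1 copies was 0.723, 0.631 and 0.848 for nucleoplasm of mESC and 0.909, 0.710 and 0.858 for its cytoplasm. In cytoplasm it was 1.28, 1.15 and 1.36 in mNPC and 1.25, 1.14 and 1.19 in mCtx, so that every mNPC and mCtx cytoplasm library lay above 1 and every mESC cytoplasm library below it. The other nuclear fractions did not follow that split. For nucleoplasm the ratio was 1.38, 0.833 and 0.926 in mNPC, and all 3 mCtx libraries lay below 1, at 0.984, 0.917 and 0.903. Chromatin had 0.706, 1.37 and 1.06 in mESC, 1.32 and 1.19 in mNPC replicates 1 and 2, and 1.06, 0.844 and 1.03 in mCtx. In mNPC chromatin replicate 3 all 4 Glu-TTC-1 copies were at 0, while Glu-TTC-2-1 and 2-2 had 75.8 and 80.7 RPM. Glu-TTC-1-3 (chromosome 13, 23463535 to 23463606, plus strand, opposite an intron of Btn1a1) had 374 RPM in mESC chromatin replicate 2, against 192 to 196 RPM for the other Glu-TTC-1 copies, and it leads the mean over the 27 libraries through that library.

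Of the entries, 24 of 36 had at least 1 RPM in 3 libraries and were tested singly over 851 entries. Glu-TTC-2-1 (chromosome 1, 34434812 to 34434883, minus strand, between genes) had 571, 274 and 209 RPM in mESC chromatin, 497, 443 and 483 RPM in nucleoplasm, and 2716, 951 and 815 RPM in cytoplasm. Its values were 131, 124 and 75.8 RPM in mNPC chromatin, 200.0, 81.0 and 65.9 RPM in nucleoplasm, and 676, 558 and 716 RPM in cytoplasm. In mCtx they were 88.9, 125 and 101 RPM in chromatin, 160, 125 and 141 RPM in nucleoplasm, and 1268, 1354 and 1616 RPM in cytoplasm. Unlike the anticodon sum, it passed as lower in every nuclear fraction: by -2 in mESC chromatin and -1.44 in nucleoplasm, -2.58 and -2.65 in mNPC, and -3.74 and -3.31 in mCtx (SE 0.43, limma adjusted p between 3.96e-07 and 0.0206). Glu-TTC-2-2, in an intron of Elf1 on chromosome 14, gave -1.65, -1.43, -2.55, -2.64, -3.66 and -3.30 in the same order, each past the threshold.

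The 4 copies of Glu-TTC-1 passed as lower in mNPC chromatin, from -4.63 for Glu-TTC-1-4 to -4.43 for Glu-TTC-1-1 (limma adjusted p of 0.00195 and 0.00374), with replicate 3 at 0 in each. They passed in mCtx chromatin as well, between -3.41 and -3.40 (limma adjusted p between 0.0146 and 0.0188), and in no nucleoplasm comparison.

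Glu-CTC-1-7 (chromosome 10, 30811140 to 30811211, plus strand, between genes) parted from the other 8 copies of Glu-CTC. Its value over their mean was 1.06, 1.33 and 1.53 in mESC chromatin, 1.06, 1.20 and 1.38 for nucleoplasm, and 1.43, 1.86 and 2.81 for cytoplasm, so it lay above them in all 9 libraries of mESC. It was at 0 in all 3 mNPC cytoplasm and all 3 mCtx nucleoplasm libraries, where other copies were listed. Such zeros were not particular to it. Glu-CTC-1-9 was at 0 in all 3 mNPC nucleoplasm libraries, and Glu-CTC-1-8 in some mNPC and mCtx libraries that listed other copies. In mNPC, Glu-CTC-1-7 had 104, 63.5 and 48.6 RPM in nucleoplasm, and some other copies had the same values there. It passed as higher than cytoplasm, at 0, by 6.12 (SE 1.81, limma adjusted p = 0.0238), the only entry of these tRNAs to do so there. The other 8 copies were lower than cytoplasm, between -0.8 and -4.95, and none passed. By name all copies of Glu-CTC share the same mature sequence, and the treatment of reads that match several copies is not known. The call therefore rests on the listing of Glu-CTC-1-7 at 0 in cytoplasm and does not tell which gene the reads came from.

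Of the Gln-TTG entries, Gln-TTG-1-1 (chromosome 11, 95859172 to 95859243, minus strand, within an exon of the noncoding gene Gm11527) and Gln-TTG-2-1 (chromosome 13, 21268469 to 21268540, minus strand) led in mCtx cytoplasm. The first had 180, 199.8 and 254 RPM there and 24.3, 15.4 and 13.6 RPM in nucleoplasm, the second 168, 201 and 254 RPM and 22.8, 15.1 and 14.4 RPM, and both were at 0 in chromatin. Chromatin minus cytoplasm was -7.71 for Gln-TTG-1-1, -7.68 for Gln-TTG-2-1, -6.55 for Gln-TTG-3-2 and -6.54 for Gln-TTG-3-1 (limma adjusted p of 0.000115, 2.22e-05, 0.000144 and 0.000144). Gln-TTG-6-1 was listed only in mCtx cytoplasm, at 26.9, 12.1 and 13.2 RPM. It was kept for testing only through these libraries, so its test is not given, and mCtx chromatin listed no value below 19.4 RPM. Nucleoplasm minus cytoplasm was -5.29 for Gln-TTG-3-1 and for Gln-TTG-3-2 and -3.51 for Gln-TTG-2-1 (limma adjusted p of 0.00251, 0.00251 and 0.0377). Gln-TTG-5-1 was listed in 1 library, mCtx cytoplasm replicate 3, at 41.4 RPM.

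Asn-GTT was split by entry in the listing. By name all its entries share the same mature sequence, and the treatment of reads that match several copies is not known. The split therefore does not tell which gene the reads came from. All chromatin values of the anticodon were listed under Asn-GTT-3-1 (chromosome 1, 171033942 to 171034015, minus strand, between genes). It passed as higher in mESC and mNPC chromatin than in cytoplasm by 6.61 and 6.2 (SE 0.73, limma adjusted p of 1.67e-07 and 6.46e-07). Outside chromatin it was listed only in mESC nucleoplasm replicate 1, so it met the filter for testing only through chromatin. Its calls are thus not read as further support. Under the common floor the anticodon sum gave 0.75 and 0.29 in these comparisons, neither past the threshold. Asn-GTT-3-2 (chromosome 2, 18587044 to 18587117, minus strand) was at 0 in all chromatin libraries. The mCtx cytoplasm values, 0, 40.2 and 44.4 RPM, were listed under Asn-GTT-3-2, which also had 63.4, 57.0 and 0 RPM in mESC nucleoplasm. The other 5 Asn-GTT entries were listed only in mESC nucleoplasm replicate 1, at 19.9 RPM for 4 of them and 22.6 RPM for Asn-GTT-3-7.

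Gln-CTG split likewise. Gln-CTG-5-1 (chromosome 13, 21996581 to 21996652, minus strand) held all the mESC reads outside cytoplasm, and mCtx cytoplasm replicate 1 listed the other 6 entries at 120.0 to 132 RPM each and Gln-CTG-5-1 at 0. Over all member entries, mESC chromatin had 1 above and 4 below cytoplasm, where 24.9% of the 851 entries were higher and 29.5% lower, and nucleoplasm 1 above and 2 below (14% and 5.17%). mNPC chromatin had 1 above and 6 below (19.3% and 19.5%), and nucleoplasm 1 above and 2 below (9.4% and 6.11%). mCtx chromatin had 0 above and 13 below (20.2% and 23.9%), and nucleoplasm 0 above and 8 below (13.5% and 11.8%), Gln-TTG-6-1 counted in both.

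Fragments of tRNAs have entries of their own, named tRF5 or tRF3 for the end of the tRNA they come from. Of the 34 fragment entries, 6 belong to these amino acids, none of them to glutamate. The Asn-GTT and Asp-GTC fragments tested had their highest levels in chromatin in each cell type, and the Gln-CTG fragments in mESC. Asp-GTC-1-11-tRF3 (chromosome 13, 21911313 to 21911384, plus strand) had 778, 795 and 2630.2 RPM in mESC chromatin, 62.0, 59.7 and 136 RPM in nucleoplasm, and 0, 0 and 36.2 RPM in cytoplasm. It had 212, 212 and 171 RPM in mNPC chromatin and 0 in all other mNPC libraries. In mCtx it had 166, 271 and 183 RPM in chromatin, 15.2, 11.6 and 8.64 RPM in nucleoplasm, and 0 in cytoplasm. Every chromatin library lay above every other library of its cell type.

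The Asp-GTC-1-11-tRF3 differences between chromatin and cytoplasm were 8.46 for mESC (SE 0.88), 7.63 for mNPC and 7.67 for mCtx (limma adjusted p of 7.05e-08, 4.45e-07 and 4.42e-07). Nucleoplasm was higher than cytoplasm by 4.59 for mESC and 3.65 for mCtx (limma adjusted p of 0.000543 and 0.00467). The mCtx nucleoplasm values, 8.64 to 15.2 RPM, lay within the range of the lowest listed values of mCtx cytoplasm, 8.4 to 18.6 RPM. Differences against cytoplasm at 0 depend on the pseudocount, and fragment calls are given for the main fit only. In chromatin mNPC and mCtx were lower than mESC by -2.57 and -2.54 (limma adjusted p of 0.0218 and 0.0198). No tRNA entry of Asp-GTC was listed in any chromatin library, so the aspartate anticodon appeared in chromatin only under its fragment entry, although the fragment is named for another gene copy than the tRNA entry.

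**Figure D5:**
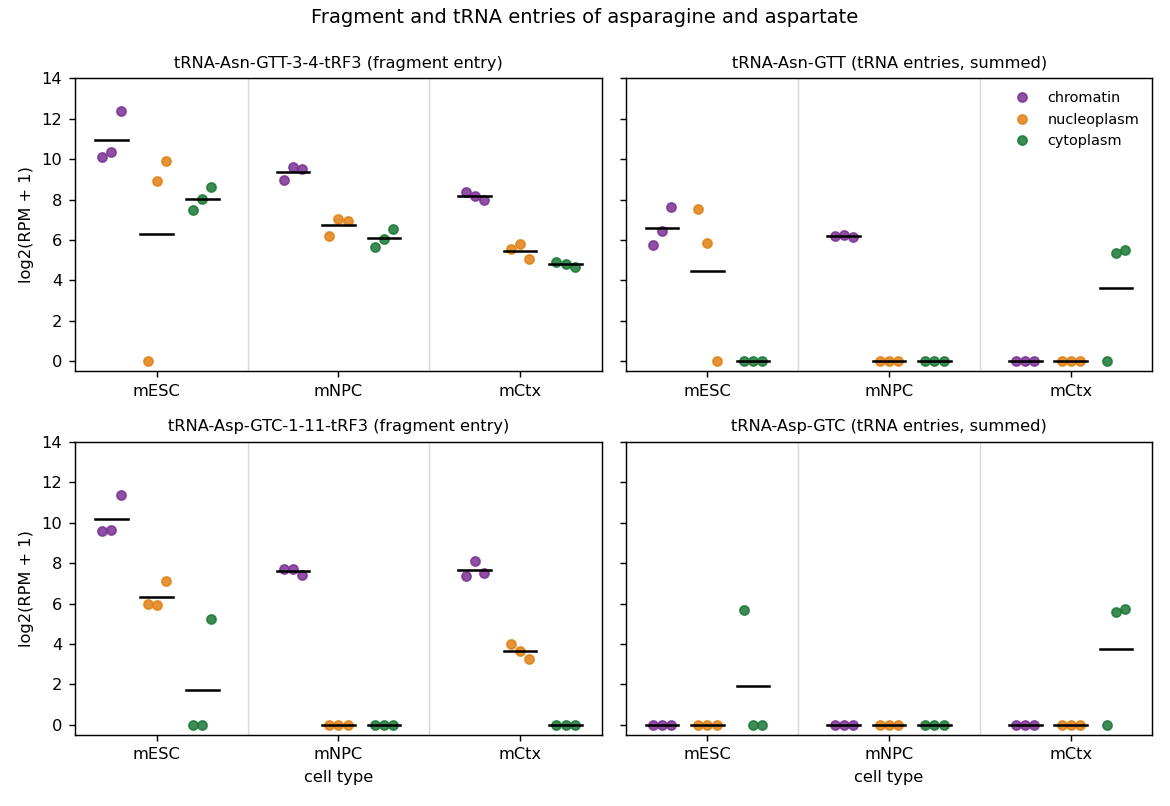
Levels of the fragment entries Asn-GTT-3-4-tRF3 and Asp-GTC-1-11-tRF3 (left) and of the summed tRNA entries of the same anticodons (right) as log2(RPM + 1) by cell type and fraction; points are libraries and black lines the means of the log values. Asp-GTC-1-11-tRF3 is listed in all 9 chromatin libraries, while the Asp-GTC tRNA entry is listed in 3 cytoplasm libraries only.

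Asn-GTT-3-4-tRF3 and Asn-GTT-3-5-tRF5 had the same value in all 27 libraries although they are named for different genes and opposite ends. They were listed at 1099, 1302 and 5318 RPM in mESC chromatin, 0, 484 and 957 RPM in nucleoplasm, and 178, 260.1 and 395 RPM in cytoplasm. In mNPC they had 497, 783 and 741 RPM in chromatin, 73.3, 130.1 and 124 RPM in nucleoplasm, and 49.5, 65.7 and 90.9 RPM in cytoplasm. In mCtx they had 334, 284 and 247 RPM in chromatin, 45.7, 53.7 and 32.3 RPM in nucleoplasm, and 29.0, 26.9 and 24.6 RPM in cytoplasm. Chromatin lay above cytoplasm and nucleoplasm without overlap in each cell type, yet the differences from cytoplasm of 2.90, 3.29 and 3.37 did not pass (SE 1.5, limma adjusted p of 0.113, 0.0999 and 0.0845). The mESC difference from nucleoplasm, which includes the library at 0, passed at 4.67 (limma adjusted p = 0.012), and those in mNPC and mCtx, at 2.63 and 2.71, did not (limma adjusted p of 0.256 and 0.203). In every chromatin library these levels were above the summed Asn-GTT tRNA entries.

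Gln-CTG-3-2-tRF5 had 96.7, 216 and 584 RPM in mESC chromatin, 0, 29.5 and 85.3 RPM in nucleoplasm, and 0, 0 and 34.6 RPM in cytoplasm. Gln-CTG-3-3-tRF3 had 77.6, 112 and 339 RPM in mESC chromatin, 19.1, 0 and 64.6 RPM in nucleoplasm, and 0, 0 and 50.4 RPM in cytoplasm. Chromatin exceeded cytoplasm by 6.14 and 5.28 (limma adjusted p of 0.000998 and 0.001). Chromatin of mNPC and of mCtx was lower than that of mESC by -7.85 and -6.28 for Gln-CTG-3-2-tRF5 (limma adjusted p of 0.000104 and 0.00091) and by -7.18 each for Gln-CTG-3-3-tRF3 (limma adjusted p of 5.21e-05 and 4.63e-05). Outside mESC only Gln-CTG-3-2-tRF5 was listed, in mCtx chromatin replicate 2 at 25.6 RPM. The tRNA entries of the same names, Gln-CTG-3-2 and Gln-CTG-3-3 (chromosome 3, 96399059 to 96399130 and 96479391 to 96479462), were listed only in mCtx cytoplasm replicate 1, at 131 and 130.2 RPM, a library in which both fragments were at 0. Asn-GTT-1-1-tRF5 was listed in mESC chromatin replicate 3 alone, at 54.8 RPM, and was not tested. Over all 28 fragments tested, mESC chromatin had 14 above and 3 below cytoplasm (26.3% and 30.7% of all 729 features). For mNPC chromatin the counts were 7 above and 1 below (21.8% and 16.2%), for mCtx chromatin 9 above and 0 below (22.4% and 17.6%). Fragments were not tested against the other features.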

How the data were processed

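Per the labels' protocols, RNA below 200 nt was depleted of rRNA with a Ribo-minus kit, made into libraries with the TruSeq Small RNA kit, selected at 120 to 160 bp and read as 100 bp single reads on a MiSeq. The deposited table gives RPM, which the authors scaled before deposit. The aligner, the counting rule and the treatment of reads that match several copies were not given in the sources used here. Genome positions are GRCm38, matched to 285 of 288 annotated Ensembl entries after adding 1 to the deposited start. Of the 36 members, 34 matched a RefSeq tRNA gene within 2 bases. Whole read counts were not recovered: 2.65% to 76.5% of the low values lay no more than 0.02 reads from a whole number, taking the lowest value as 10 reads.

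The tRNA entries of all amino acids were summed by anticodon, and limma 3.58.1 in R 4.3.3 (trend and robust variance) was fitted to log2(RPM + 1) of the 729 features that reached 1 RPM in 3 or more libraries, with 9 group means. The entry table was fitted likewise. Adjusted p-values are Benjamini-Hochberg values over all features of a contrast, with a threshold of 0.05. Differences are on the log2(RPM + 1) scale, which understates changes between low values above 0, while differences against a 0 depend on the pseudocount and can be far larger than under a common floor. The procedure was tested on simulated data with normal noise on the log scale. These had no listing limit and no shared reads, so that test does not cover calls against values listed at 0. Fractions of a cell type share the cytoplasm libraries as their reference. The rule for members uses names only, but these amino acids and the lists were picked with earlier results of these data known. All 6 anticodons and all fragments of these amino acids are named, with the highest entry of each anticodon and, per comparison with cytoplasm, up to 5 entries with the largest differences among calls without overlap. Alternatives were another pseudocount, no filter, a filter at 9 libraries, a common floor, median centring, scaling to tRNA reads, a replicate block, the highest copy and leaving out each library. Figures were drawn with matplotlib 3.10.9 in Python 3.11.15.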

Additional observations from a re-analysis of the deposited data

Results flagged for a closer look

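In Asn-GTT the distance of chromatin from cytoplasm differed between mCtx and mNPC by -9.82 on the log2(RPM + 1) scale (limma adjusted p = 0.000969, a test of the difference itself). Chromatin was at 0 in all 3 mCtx libraries and at 70.9 to 75.2 RPM in the 3 mNPC libraries, while cytoplasm had 0, 40.2 and 44.4 RPM in mCtx and 0 in mNPC. These levels were close to what a library could list, and the size depends on the pseudocount. Under the common floor of 59.1 RPM the distance was 0.29 in mNPC and 0.00 in mCtx. The chromatin values were listed under Asn-GTT-3-1 and the mCtx cytoplasm values under Asn-GTT-3-2.

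In Gln-TTG the same difference between mCtx and mNPC was -7 (limma adjusted p = 0.0464). Chromatin was at 0 in both cell types, so it rests on cytoplasm, with 584, 569 and 755 RPM in mCtx and 119, 0 and 0 RPM in mNPC. It was lost in 24 of the 27 refits that each left out 1 library, mCtx cytoplasm replicate 1 among them (-7.06, limma adjusted p = 0.066), with limma adjusted p up to 0.12.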

How the results depend on the processing

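Counts below are members past the threshold, of 6 anticodons unless entries are named. Under the common floor, mESC nucleoplasm against cytoplasm had 0 in place of 1, mNPC chromatin against cytoplasm 1 in place of 2 and against nucleoplasm 0 in place of 1, mCtx chromatin against cytoplasm 2 in place of 4 and against nucleoplasm 0 in place of 1, chromatin of mCtx against mNPC 0 in place of 1, nucleoplasm of mNPC against mESC 1 in place of 4 and of mCtx against mNPC 0 in place of 1, and cytoplasm of mCtx against mNPC 1 in place of 2. The change of chromatin against cytoplasm between mCtx and mNPC had 1 in place of 2, and that of nucleoplasm 1 in place of 0. The floor raises every value below 59.1 RPM, which for anticodons is the sum over copies. With log2(RPM + 10), mCtx chromatin against nucleoplasm and nucleoplasm of mCtx against mNPC had 0 in place of 1. Scaled to tRNA reads, mNPC against mESC had 0 in place of 2 in chromatin and 0 in place of 1 in cytoplasm, and mCtx against mESC 1 in place of 2 in chromatin and in cytoplasm. Median centring gave 2 in place of 1 for mESC nucleoplasm against cytoplasm, mESC chromatin against nucleoplasm and nucleoplasm of mCtx against mNPC, 4 in place of 2 for cytoplasm of mCtx against mNPC, and 1 in place of 0 for the change of chromatin against cytoplasm between mNPC and mESC. Taking the highest copy gave 2 in place of 1 for both mESC comparisons just named, 4 in place of 2 for cytoplasm of mCtx against mNPC and 1 in place of 2 for the change between mCtx and mNPC. The stricter filter gave 1 in place of 2 for that change and for mCtx nucleoplasm against cytoplasm. Of the member entries, log2(RPM + 10) called 9 in place of 5 in mESC chromatin, 6 in place of 3 in mNPC nucleoplasm and 13 in place of 8 in mCtx nucleoplasm, and the floor 6 in place of 3 in mNPC nucleoplasm and 8 in place of 13 in mCtx chromatin. In mESC chromatin against cytoplasm, neither called in the first place, Gln-CTG turned from -0.40 to 0.04 with centring, and Glu-CTC from 0.06 to -0.17 scaled to tRNA reads and -0.42 with the highest copy. Gln-TTG in mESC nucleoplasm turned from 1.71 to -0.26 under the floor. The cause of these changes was otherwise not tested. Scaling to tRNA reads moved the median of all features by up to 2.03 (mCtx nucleoplasm against cytoplasm) and centring by up to 0.62. In mESC chromatin against cytoplasm centring left that median in place, at a shift of 0, while Glu-TTC moved from -2.01 to -0.35. Centring was set on the features above 0 in all 27 libraries, so the median of all features does not measure its size.

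In 0 of 18 contrasts was the correlation of deviations above 0.1 in every same-numbered pair of libraries, so the numbers were not taken as a pairing. With the replicate number as a block, mESC nucleoplasm against cytoplasm had 2 in place of 1, Glu-TTC passing there at -1.31 (limma adjusted p = 0.0372), and the change of chromatin against cytoplasm between mCtx and mNPC 1 in place of 2.

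Leaving out 1 library at a time gave 0 to 2 for mESC nucleoplasm against cytoplasm, 1 to 3 for mESC chromatin against nucleoplasm, 2 to 5 for mCtx chromatin and 1 to 4 for mCtx nucleoplasm against cytoplasm, and 0 to 1 for mCtx chromatin against nucleoplasm. mNPC against mESC gave 1 to 2 in chromatin and 0 to 2 in cytoplasm, mCtx against mESC 1 to 3 in chromatin and 0 to 3 in cytoplasm, and mCtx against mNPC 1 to 4 in cytoplasm. The changes of chromatin gave 0 to 1 between mNPC and mESC and 1 to 3 between mCtx and mNPC, those of nucleoplasm 0 to 1 and 0 to 2. Entries gave 5 to 9 in mESC chromatin, 7 to 14 in mNPC chromatin, 2 to 7 in mNPC nucleoplasm, 9 to 20 in mCtx chromatin and 4 to 12 in mCtx nucleoplasm. In mESC chromatin against cytoplasm Gln-CTG ran from -2.58 to 2.18 and Glu-CTC from -0.54 to 0.54, and Gln-TTG in mESC nucleoplasm from -0.93 to 3.52. Without mCtx cytoplasm replicate 1, 20 entries passed in mCtx chromatin and 14 in mNPC chromatin.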
